A study of Mus musculus with 8 samples.

Results

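Committed oligodendrocyte precursors (COP) are cells on the way from oligodendrocyte precursor cells (OPC) to myelin-forming oligodendrocytes. The COP studied here are the 115 cells, of 35672 in all, to which the authors' deposited annotation gave the type COP, and all 115 lie in 1 cluster of that name. The other cells of the lineage were 765 OPC and 4435 Oligodendrocytes. Cells came from the paraventricular nucleus of the hypothalamus (PVN) of C57BL/6 mice, dissociated with papain and profiled by droplet 3′ RNA sequencing in 8 libraries, with each sex, cohort and exposure combined once. In the CMS cohort, mice of 11 weeks of age had either 21 days of chronic mild stress (CMS) followed by 15 min of acute restraint stress (ARS), or neither and served as unstressed controls. In the baseline cohort, mice of 10 weeks of age had either the same restraint without chronic stress or none. The extract protocol puts tissue collection 5 h after the acute stress. The controls of the CMS cohort carry CMS in their titles, and their condition label, unstressed, is followed here. The number of animals behind a library is not in the labels, and the p-values therefore speak of the spread among these 8 libraries, which may be technical.

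OPC are the dividing reserve of the lineage in the adult brain, and a share of them leaves the cycle and differentiates. COP are a brief stage of that path, in which the OPC programme is being switched off before the myelin genes are fully on. They are known for Gpr17, a receptor carried transiently by differentiating precursors, for Neu4, a sialidase that trims glycoproteins and glycolipids, and for Bmp4, a secreted signal of the bone morphogenetic protein family. Expression of these markers was not analysed here, so the label could not be checked against them and rests on the authors' annotation. The values at hand for each cell are its number of UMIs (unique molecular identifiers, which count captured RNA molecules), its number of detected genes, the mitochondrial share of its UMIs, a doublet score (higher for barcodes that look like 2 cells) and scores for the S and G2/M phases of the cell cycle.

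The libraries held 3523 to 5777 cells and 9924892 to 15760435 UMIs in all, with medians of 1845 to 2565 UMIs per cell. Of the barcodes, 722 occurred in more than 1 library, in 1452 cells (4.07% of all), among them 4 COP. No library held fewer than 6 COP. The counting intervals below are exact 95% Clopper-Pearson intervals, or conditional exact intervals for odds ratios, and cover counting error only.

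COP were scarce beside the precursors they derive from. Over all libraries there were 15.0 COP per 100 OPC (interval 12.2 to 18.3) and 2.59 COP per 100 Oligodendrocytes (2.14 to 3.12). They made up 2.16% of the 5315 cells of the lineage and 0.322% of all cells. In the CMS cohort the female ARS library held 15 COP and 114 OPC, the female control library 11 and 96, the male ARS library 8 and 117, and the male control library 6 and 87. In the baseline cohort the female ARS library held 28 COP and 77 OPC, the female control library 13 and 103, the male ARS library 17 and 88, and the male control library 17 and 83. The female baseline ARS library thus combined the most COP with the fewest OPC.

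The ratio of COP to OPC was lower in the CMS cohort than in the baseline cohort for each of the 4 matched pairs of libraries. It was 13.2 per 100 OPC in the female CMS ARS library, 11.5 in the female CMS control, 6.84 in the male CMS ARS and 6.90 in the male CMS control library. In the baseline cohort it was 36.4 in the female ARS, 12.6 in the female control, 19.3 in the male ARS and 20.5 in the male control library. The mean was 9.59 ± 3.22 per 100 OPC in the CMS cohort and 22.2 ± 10.1 in the baseline cohort (SD, n = 4 libraries each). The ranges of the cohorts overlapped only in that the female CMS ARS library, at 13.2, stood above the female baseline control library, at 12.6. On the log2 scale the mean within-pair difference, CMS minus baseline, was -1.13 (SD 0.67), a 2.19-fold lower ratio in the CMS cohort, with an exact two-sided sign-flip permutation p of 0.13 (n = 4 pairs), the smallest that 4 pairs allow.

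**Figure D1:**
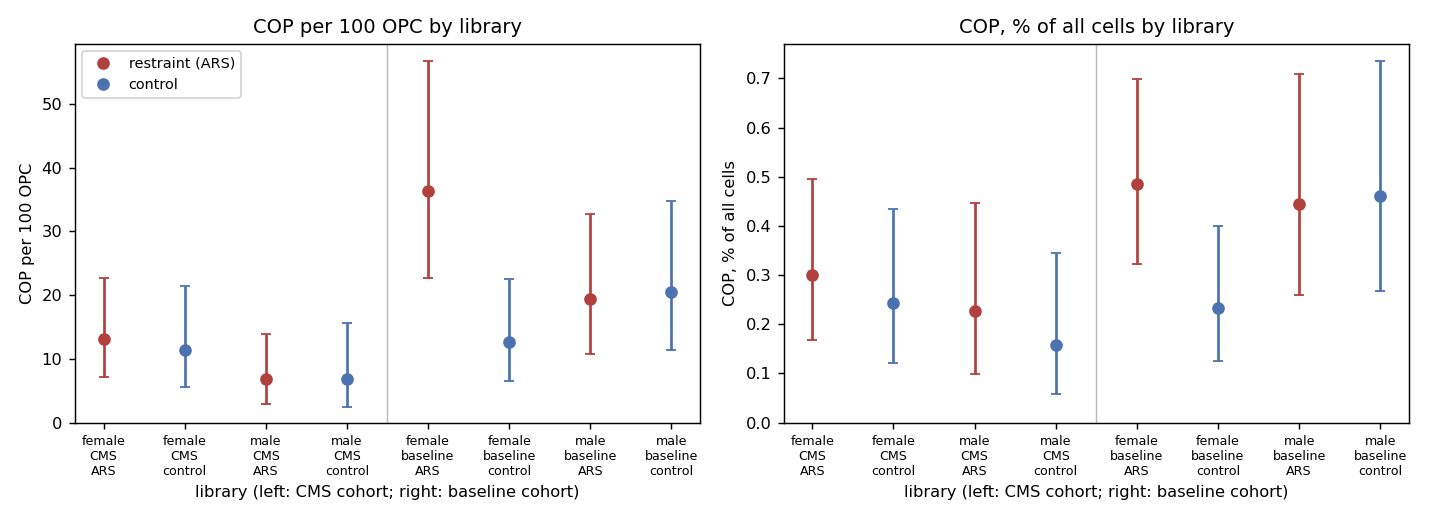
Number of COP per 100 OPC (left) and COP as a percentage of all cells (right) in each library, with exact 95% counting intervals as bars. The CMS cohort is left of the grey line and the baseline cohort right of it. The 4 CMS libraries lie between 6.84 and 13.2 COP per 100 OPC and the baseline libraries between 12.6 and 36.4.

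Pair by pair, the odds of a COP against an OPC were 2.75-fold lower in the CMS library for female ARS mice (interval 1.32 to 5.93), 2.81-fold lower for male ARS mice (1.09 to 7.89) and 2.95-fold lower for male controls (1.05 to 9.61). For female controls they were 1.10-fold lower, with an interval (0.432 to 2.86) that reaches well to both sides of no difference. These intervals count cells of the libraries compared and do not cover the spread among libraries. COP made up 0.232% ± 0.0586 of all cells in the CMS cohort and 0.406% ± 0.116 in the baseline cohort, while OPC made up 2.51% ± 0.548 in the CMS cohort and 1.93% ± 0.447 in the baseline cohort. Against Oligodendrocytes the fall of COP was smaller and did not appear in every pair, with 2.06 ± 0.363 COP per 100 Oligodendrocytes in the CMS cohort and 3.07 ± 1.07 in the baseline cohort, lower in 3 of 4 pairs (exact sign-flip p = 0.25).

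Tested with all 17 types, COP numbers gave a log2 fold of -0.76 (SE 0.35), or 1.69-fold fewer COP in the CMS cohort, short of the threshold of 0.05 in edgeR's quasi-likelihood test (adjusted p = 0.136; range over the alternatives 0.0189 to 0.483). That test called 17.6% of the types between the cohorts. OPC had a log2 fold of 0.38 (SE 0.24, edgeR adjusted p = 0.262) and Oligodendrocytes of -0.28 (SE 0.23, edgeR adjusted p = 0.380). The COP difference was called by limma on log odds (-0.75, adjusted p = 0.0382), and by edgeR when the number of OPC stood in for the library size (-1.20, adjusted p = 0.0189), so the call depends on the method and the denominator. Limma on log odds called 23.5% of the 17 types. With OPC as the denominator 25% of 16 types were called and the median type shifted by -0.60 on the log2 scale. Age, and whatever else separated the cohorts, cannot be told apart from the cohort itself, and chronic stress was given to only 2 of the 4 libraries of the CMS cohort.

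Between restrained mice and controls, edgeR with OPC as the denominator called no difference in COP (log2 fold 0.45, adjusted p = 0.999). The size of the difference in the ratio of COP to OPC rested on 1 pair of libraries. Summed over both sexes, mice with chronic stress and restraint had 9.96 COP per 100 OPC (23 and 231 cells, interval 6.19 to 15.3), against 9.29 in the controls of the CMS cohort (17 and 183 cells, 5.30 to 15.3). Baseline mice with restraint had 27.3 COP per 100 OPC (45 and 165 cells, interval 19.2 to 38.1), against 16.1 in the baseline controls (30 and 186 cells, 10.6 to 23.8). The odds of a COP against an OPC were 2.87-fold higher after restraint in female baseline mice (interval 1.33 to 6.45), and the odds ratio was 0.943 (0.422 to 2.11) in male baseline mice. In the CMS cohort it was 1.15 (0.467 to 2.90) in females and 0.991 (0.290 to 3.60) in males. The mean ratio was 18.9 ± 12.7 per 100 OPC in ARS libraries and 12.9 ± 5.65 in control libraries (SD, n = 4 each), higher in 2 of 4 pairs (exact sign-flip p = 0.5). Without the female baseline pair, the mean log2 difference was 0.0206, against 0.39 with it, so that pair decides the size.

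COP as a share of all cells were 0.364% ± 0.121 in ARS libraries and 0.274% ± 0.130 in control libraries, with a fitted log2 fold of 0.45 (SE 0.35, edgeR adjusted p = 0.944; fold 1.36, 95% interval 0.844 to 2.20). For stress the edgeR test called 0% of the types (0 also before adjustment at 0.05), as did DESeq2 and limma on log odds. Without the female baseline control library the COP fold was 0.14 on the log2 scale, and without the male baseline control library it was 0.73. The COP interactions of sex with stress (log2 difference 0.57, SE 0.74, edgeR adjusted p = 0.871) and of cohort with stress (-0.08, SE 0.76, edgeR adjusted p = 0.918) were not called, nor were those with OPC as the denominator (0.98, SE 0.82, and -0.59, SE 0.82; edgeR adjusted p = 0.590 and 0.796). The edgeR interactions called 0% of the types. The 95% intervals of these interactions in COP number, as folds, ran from 0.532 to 4.12 for sex and from 0.327 to 2.74 for cohort.

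Between the sexes, female libraries had 18.4 ± 12.0 COP per 100 OPC and male libraries 13.4 ± 7.54 (SD, n = 4 each), higher in the female library of 3 of 4 pairs (exact sign-flip p = 0.375). The exception was the baseline control pair, with 12.6 in the female and 20.5 in the male library. The female libraries had COP at 0.316% ± 0.117 of all cells, against 0.322% ± 0.152 in the male libraries (fitted log2 -0.02, SE 0.35, edgeR adjusted p = 0.960; fold 0.988, interval 0.612 to 1.60), and the sign of this difference changed under several settings. OPC were 1.90% ± 0.418 of all cells in the female libraries, against 2.54% ± 0.520 in the male ones. The edgeR test called 5.88% of the types between the sexes (6.25% of 16 with OPC as the denominator), and neither COP nor OPC nor Oligodendrocytes was among them.

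COP barcodes carried more captured UMIs than those of the stages before and after them. The median COP had 6282 UMIs, against 3006 in OPC and 3465 in Oligodendrocytes, and 50 of the 115 COP (43.5%, interval 34.3 to 53.0) lay above 6989 UMIs, the highest value of any OPC. Only 2.30% of Oligodendrocytes did. Library medians, taken on the log2 scale, were 6910 UMIs for COP in the female CMS ARS, 5294 in the female CMS control, 5567 in the male CMS ARS and 4935 in the male CMS control library. They were 4204 in the female baseline ARS, 7476 in the female baseline control, 7755 in the male baseline ARS and 6363 in the male baseline control library. The COP median stood above the medians of OPC (2791 to 3848) and of Oligodendrocytes (3043 to 3951) in each of the 8 libraries, and the ranges of library medians did not overlap.

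Within libraries, COP had on average 1.94-fold the UMIs of OPC (range 1.28 to 2.68 over libraries; log2 difference 0.96, SD 0.41, n = 8 libraries). They had 1.71-fold the UMIs of Oligodendrocytes (1.21 to 2.27; log2 difference 0.77, SD 0.34). The exact two-sided sign-flip p was 0.00781 for each, the smallest that 8 libraries allow, and also 0.00781 after Benjamini-Hochberg adjustment over 6 tests. Neither difference was called without the top 25% of doublet scores, where they were 0.35 to OPC and 0.16 to Oligodendrocytes (exact sign-flip adjusted p = 0.672 and 0.781). That filter left 38 COP, with 1 in the smallest library. Among the 17 types the order of median depth ran COP, AVP neurons (6141 UMIs), which make the hormone vasopressin, and Mixed_Endothelial cells (5110). COP were deeper than AVP neurons in 4 of 8 libraries and deeper than Mixed_Endothelial cells in 5 of 8, so COP are not told apart from either. By library, COP ranked 1 to 5, AVP neurons 1 to 2 and Mixed_Endothelial cells 2 to 5.

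**Figure D2:**
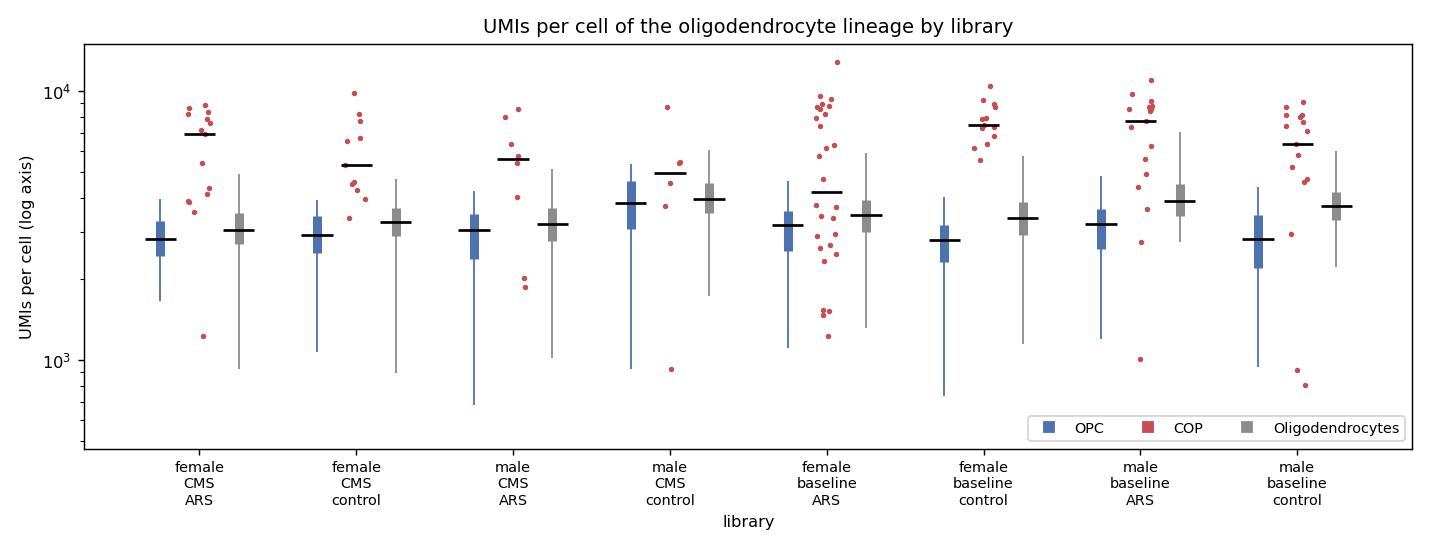
UMIs per cell (log axis) of OPC, COP and Oligodendrocytes in each library. Each red point is 1 COP, thick and thin bars span the middle 50% and 90% of OPC or Oligodendrocytes, and black lines are library medians. The COP median lies above both others in each of the 8 libraries. Over all libraries the middle 50% is widest in COP (3893 to 8205 UMIs, against 2453 to 3554 in OPC and 2985 to 4025 in Oligodendrocytes). The full range of COP, 548 to 12778 UMIs, lies within that of Oligodendrocytes, 504 to 13323.

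COP were far from uniform in depth. The middle 50% of COP spanned 3893 to 8205 UMIs, against 2453 to 3554 in OPC and 2985 to 4025 in Oligodendrocytes. Of the 115 COP, 11 had under 2000 UMIs, 20 had 2000 to under 4000, 51 had 4000 to 8000 and 33 had more than 8000. The 11 shallowest had a median mitochondrial share of 7.34%, with one cell at 26.2%, against 2.77% in COP of 4000 to 8000 UMIs. COP under 4000 UMIs were most frequent in the female baseline ARS library, with 14 of its 28 COP (50%), against 17 of 87 (19.5%) in the 7 other libraries. The female baseline control library had none, its 13 COP running from 5550 to 10425 UMIs. The female baseline ARS library, which had the highest ratio of COP to OPC, thus also had the lowest COP median, and the part of shallow cells in that ratio was not tested.

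COP also had more detected genes than OPC and Oligodendrocytes. The median COP had 2665 genes, against 1812 in OPC and 1546 in Oligodendrocytes. Library medians were 2634 ± 260 genes for COP, 1833 ± 165 for OPC and 1553 ± 110 for Oligodendrocytes (SD, n = 8), and COP were higher in each of the 8 libraries. Within libraries this was 1.44-fold the genes of OPC (range 1.12 to 1.71) and 1.69-fold those of Oligodendrocytes (1.39 to 1.99), each with an exact sign-flip p of 0.00781 (adjusted 0.00781). OPC and Oligodendrocytes stood in opposite orders by the 2 measures, with more genes and fewer UMIs in the median OPC. Without the top 25% of doublet scores, with 38 COP left, the log2 difference in genes was 0.06 to OPC and 0.30 to Oligodendrocytes. Neither was called (exact sign-flip adjusted p = 0.781 and 0.672). AVP neurons and Mixed_Endothelial cells were near COP in genes, with COP 1.04-fold and 1.10-fold as high and higher in 6 of 8 libraries against each.

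A window of depth narrows the differences in UMIs without removing them. Among cells with 4000 to 8000 UMIs there were 51 COP, 103 OPC and 1079 Oligodendrocytes. Within that window COP detected a median of 42.4 genes per 100 UMIs, OPC 53.7 and Oligodendrocytes 40.4. The window did not make depths equal, since its COP had a median of 6238 UMIs, OPC 4511 and Oligodendrocytes 4563, and genes per UMI fall with depth. As log2 genes per log2 UMIs, the medians were 0.902 for COP, 0.926 for OPC and 0.893 for Oligodendrocytes. By that measure COP were below OPC in each of the 8 libraries and above Oligodendrocytes in each of the 8, with libraries holding only 3 to 9 COP in the window. This measure also moved with depth among COP, being 0.915 in the female CMS control library, with a median of 5294 UMIs in the window, and 0.897 in the female baseline control library, with 7256. These values are a description, and the place of COP at equal depth was not tested.

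**Figure D3:**
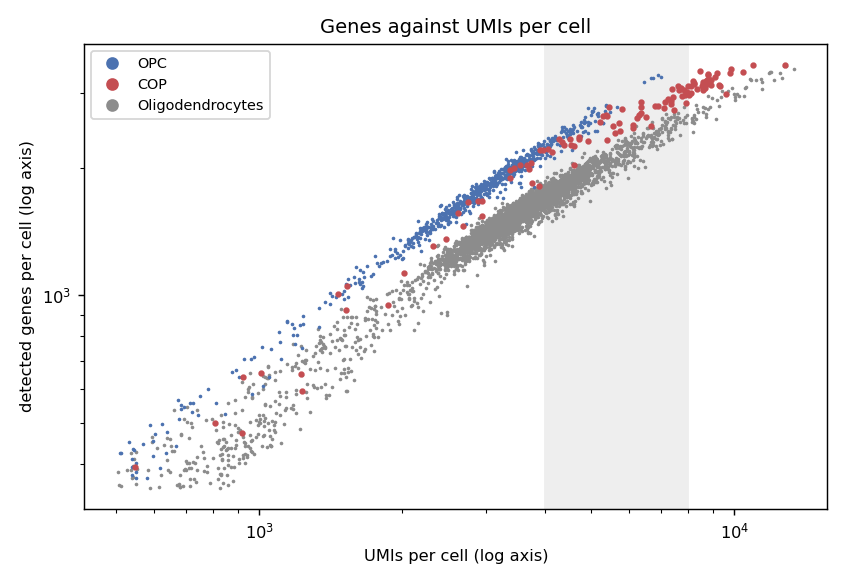
Detected genes against UMIs per cell (both log axes) for OPC, COP and Oligodendrocytes, 1 point per cell, with the window of 4000 to 8000 UMIs shaded. COP reach further right and higher than OPC, and within the window the medians are 2665 genes in COP, 2425 in OPC and 1857 in Oligodendrocytes.

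COP had higher doublet scores than OPC and Oligodendrocytes. The median doublet score over all cells was 2.39 in COP, 1.42 in OPC and 0.593 in Oligodendrocytes. By that median COP ranked behind only Mixed_Endothelial cells (2.48) among the 17 types, followed by Astrocytes (2.24) and Tanycytes (2.0). By library means the COP rank ran from 2 to 7. COP were above Astrocytes in 5 of 8 libraries and above Tanycytes in 6 of 8. Of the 115 COP, 81 (70.4%, interval 61.2 to 78.6) scored above 2, against 9.67% of OPC and 2.44% of Oligodendrocytes. In the top 5% of scores of their library were 14 COP (12.2%, interval 6.82 to 19.6), 2.09% of OPC and 0.338% of Oligodendrocytes. Library means were 2.0 ± 0.393 for COP, 1.35 ± 0.0811 for OPC and 0.767 ± 0.0380 for Oligodendrocytes (SD, n = 8). COP were higher in each of the 8 libraries, by 0.653 (SD 0.405) over OPC and by 1.23 (SD 0.390) over Oligodendrocytes. The exact sign-flip p was 0.00781 for each (adjusted 0.00781). How the score was computed is not given, so whether it is independent of the expression behind the type labels could not be checked. These p-values therefore describe the labelled cells and give no separate support for the label.

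The COP scores are given here in ranges set at 0, 2 and 3, with few cells between 0 and 2. A score of exactly 0 was given to 29 COP (25.2%), 5 scored above 0 and up to 2, 61 scored above 2 and up to 3, and 20 scored above 3. The 29 cells at 0 had a median of 2682 UMIs (548 to 8576), the 61 cells from 2 to 3 had 7725 (3364 to 10425) and the 20 highest 5250 (2466 to 12778). Across the 115 COP, UMIs and doublet score had a Spearman rho of 0.250. A score of 0 was given to 27.1% of all cells, 16.6% of OPC and 8.41% of Oligodendrocytes. By library, COP at 0 were 3 of 15 in the female CMS ARS, 1 of 11 in the female CMS control, 2 of 8 in the male CMS ARS and 3 of 6 in the male CMS control library. They were 11 of 28 in the female baseline ARS, 0 of 13 in the female baseline control, 5 of 17 in the male baseline ARS and 4 of 17 in the male baseline control library. In the female baseline control library all 13 COP scored between 2.12 and 2.67.

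**Figure D4:**
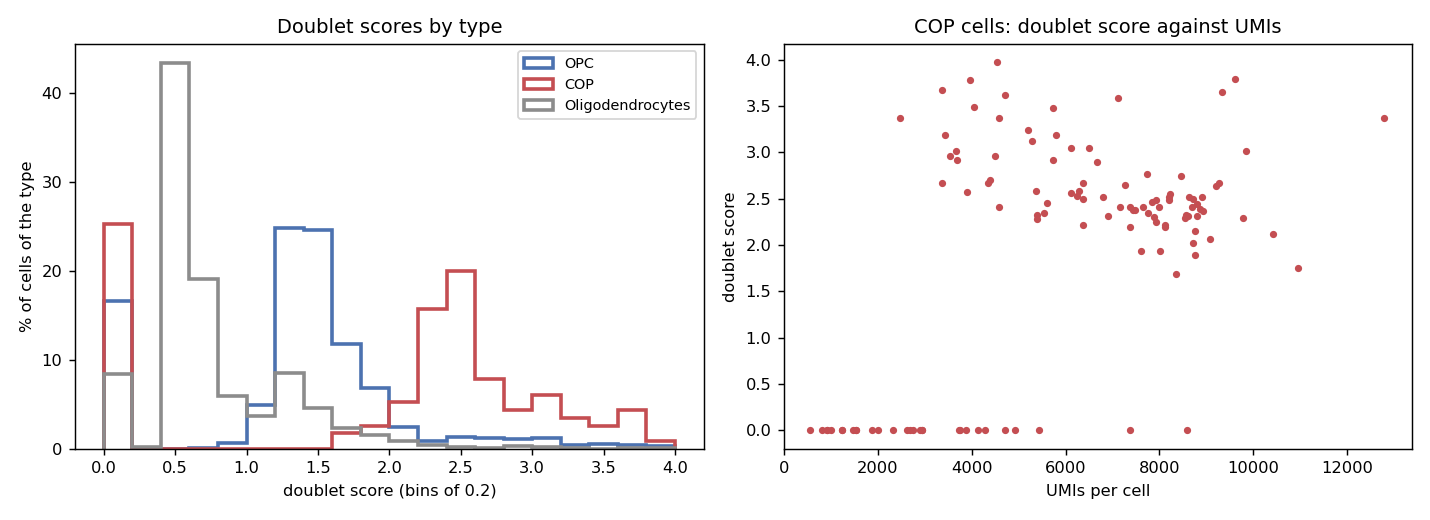
Left, share of cells of each type by doublet score in bins of 0.2; right, doublet score against UMIs for the 115 COP. Of the 115 COP, 61 lie above 2 and up to 3, and the 29 COP at 0 have a lower median of UMIs. As shares of each type, 70.4% of COP, 9.67% of OPC and 2.44% of Oligodendrocytes score above 2.

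Without the top 5% of doublet scores of each library, the log2 difference in UMIs was 1.02 to OPC and 0.83 to Oligodendrocytes (exact sign-flip adjusted p = 0.00938 for each). The difference was no longer called when the top 25% was left out, an alternative added after the data were seen, which removed 77 of the 115 COP. The 38 COP left included only 1 in the smallest library, and the SD of the log2 difference in UMIs to OPC was 0.90. Loss of the call therefore does not separate a smaller difference from too few cells. COP were then higher than OPC and than Oligodendrocytes in 5 of 8 libraries. Among cells with a score of 0 alone, COP had 2.01-fold the UMIs of OPC and 2.47-fold those of Oligodendrocytes, higher in 6 of the 7 libraries with such COP (exact sign-flip adjusted p = 0.0938 for each). For genes per cell the log2 difference to OPC was 0.64 at a score of 0 (exact sign-flip adjusted p = 0.188). Which deposited COP barcodes hold 2 cells was not tested.

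COP lacked the high S scores found in some OPC. No COP had an S score above 0.1 (0 of 115, which allows a share of up to 2.61% taken as 3 cells of the total, or 3.16% as the exact upper bound), against 120 of 765 OPC (15.7%, interval 13.2 to 18.5) and 88 of 4435 Oligodendrocytes (1.98%, 1.59 to 2.44). The highest S score was 0.0956 among COP, 0.821 among OPC and 0.175 among Oligodendrocytes. For G2/M, 1 of 115 COP (0.870%, interval 0.0220 to 4.75) scored above 0.1, against 3.01% of OPC and 0.428% of Oligodendrocytes. The G2/M scores of OPC reached 1.61 and those of COP 0.121. These scores come from the expression of the same cells that were annotated, so they are given with no test.

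Library means of the S score ran from -0.0118 to 0.00574 in COP, from 0.0198 to 0.0527 in OPC and from 0.00654 to 0.0123 in Oligodendrocytes. COP were below both in each of the 8 libraries, by 0.0398 (SD 0.0136) on average to OPC and by 0.0128 (SD 0.00841) to Oligodendrocytes. Most of the distance to OPC came from a tail of high scores among OPC, since the difference in library medians was -0.0121. G2/M means did not separate COP (-0.00540 ± 0.0117) from OPC (-0.00397 ± 0.0121), with COP higher in 4 of 8 libraries. With library medians in place of means, the G2/M score of COP stood 0.0150 above that of OPC on average. Over all cells the medians were -0.0114 in COP and -0.0203 in OPC, and 40% of COP and 31.4% of OPC scored above 0. By means, COP were above Oligodendrocytes (-0.0181 ± 0.00404) in 6 of 8 libraries. In the window of 4000 to 8000 UMIs, 0 of 51 COP had an S score above 0.1 (which allows up to 5.88% as 3 cells, or 6.98% as the exact upper bound), against 29 of 103 OPC (28.2%) and 24 of 1079 Oligodendrocytes (2.22%). The share of OPC above 0.1 thus differed with depth, and the part of depth in the gap was not tested.

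**Figure D5:**
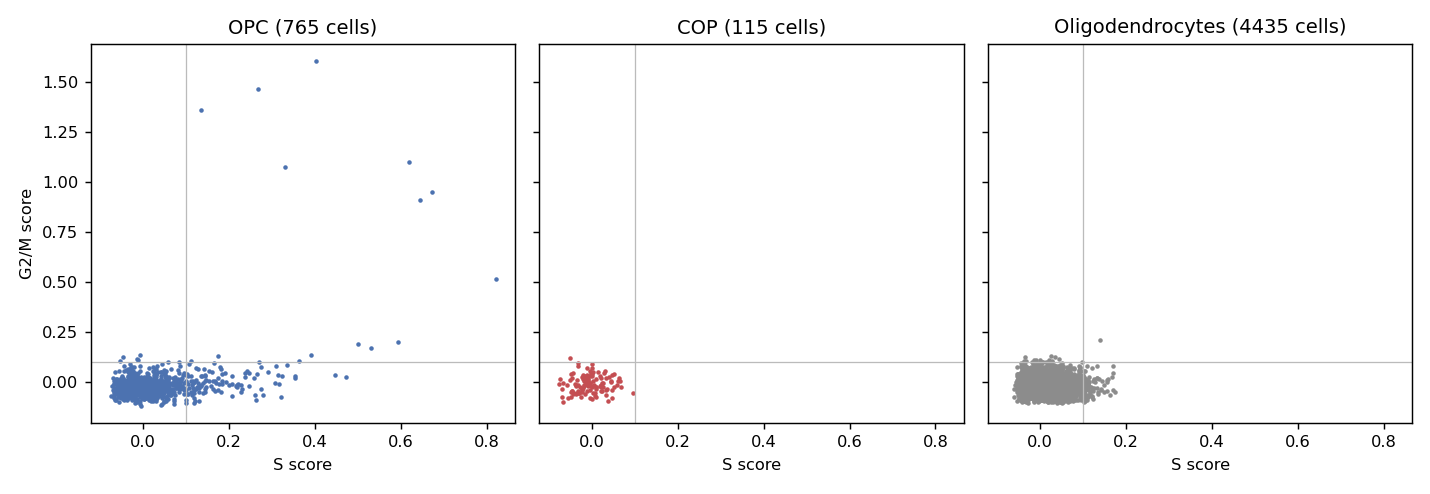
G2/M score against S score for OPC, COP and Oligodendrocytes, 1 point per cell on shared axes, with grey lines at 0.1. OPC have a tail up to 0.821 in S and 1.61 in G2/M, whereas COP stay at or below 0.0956 in S and 0.121 in G2/M.

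The mitochondrial share of COP lay near that of OPC and below that of Oligodendrocytes. Library medians ran from 2.74% to 3.17% in COP, from 2.63% to 3.08% in OPC and from 3.95% to 4.54% in Oligodendrocytes. COP were below Oligodendrocytes in each of the 8 libraries, by 1.30 percentage points (SD 0.186), and above OPC in 3 of 8. Of the 115 COP, 4 (3.48%) had a mitochondrial share above 10%, against 4.44% of OPC and 6.49% of Oligodendrocytes. Across the 115 cells, UMIs and genes rose together (Spearman rho 0.976), UMIs and mitochondrial percent ran in opposite directions (rho -0.297), and S and G2/M scores were nearly unrelated (rho 0.0862). In OPC the Spearman rho of S and G2/M was 0.174, and Pearson's r was 0.0539 in COP and 0.458 in OPC, which hold a few cells of extreme scores. The cells share libraries and depth, so these correlations are descriptions.

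Within COP, no difference of these properties by exposure, sex or cohort passed its test. Limma called 0 of 18 tests (6 measures in 3 comparisons); 2 had an unadjusted p below 0.05, and the smallest adjusted value was 0.238. For UMIs, limma called 0% of the 17 types in each of the 3 comparisons. By cohort it called 23.5% of the types for genes per cell and 17.6% for the mitochondrial percent, with neither OPC nor Oligodendrocytes among them. By sex it called 23.5% of the types for the G2/M score, among them OPC (-0.0140, limma adjusted p = 0.0329) and Oligodendrocytes (0.00739, limma adjusted p = 0.0314), while COP differed by 0.00537 (limma adjusted p = 0.481). Each of the other comparisons of these measures called 0% of the types, except the S score by cohort (5.88%). COP had a library median of 6109 ± 1557 UMIs in ARS and 6017 ± 1146 in control libraries (SD, n = 4 each), a log2 difference of 0.00 with an interval from -0.42 to 0.43. They had 5971 ± 1497 UMIs in female and 6155 ± 1216 in male libraries, and 5677 ± 862 in the CMS cohort and 6450 ± 1613 in the baseline cohort (log2 difference -0.16, interval -0.58 to 0.27). Without the female baseline ARS library, the one with the most shallow COP, the cohort difference was -0.43 and was called (limma adjusted p = 0.0066). With 6 to 28 COP per library, differences of up to about 1.34-fold in either direction between ARS and control lie inside that interval.

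Both tests under an unadjusted p of 0.05 concerned cell cycle scores. The S score of COP averaged 0.000964 ± 0.00512 in the CMS cohort and -0.00782 ± 0.00579 in the baseline cohort (SD, n = 4), higher in each of the 4 pairs by 0.00291 to 0.0143 (limma adjusted p = 0.238, with 5.88% of types called). The G2/M score averaged -0.0132 ± 0.0109 in ARS and 0.00237 ± 0.00635 in control libraries, higher in 1 of 4 pairs (limma difference -0.0155, SE 0.00556, adjusted p = 0.374, with 0% of types called), and was called without the female CMS control library (-0.0215, limma adjusted p = 0.0139). With medians in place of means, the S score was called lower in ARS libraries (-0.0147, limma adjusted p = 0.0127). The doublet score averaged 1.85 ± 0.132 in ARS and 2.15 ± 0.531 in control libraries (limma adjusted p = 0.783), and without the male CMS control library the difference was -0.553 and was called (limma adjusted p = 0.0272). It averaged 2.20 ± 0.425 in female and 1.80 ± 0.274 in male libraries (limma adjusted p = 0.505).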

How the data were processed

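The deposited table holds 1 line per cell. Per the submitters' processing notes, Cell Ranger 3.0.2 and 3.1.0, Seurat 3.1.3 and the mm10 genome were used; no source used here ties a version to a library or names the filters on cells. UMIs and genes per cell are whole-number counts as deposited. The mitochondrial share was deposited as a fraction and turned into percent here. Doublet, S and G2/M scores are the authors' deposited values, and their tools are not given. No cells or doublets were removed here. Cells were joined to libraries by the experiment, sex and condition in their names, with the experiment named for acute stress taken as the baseline cohort; 0 cells stayed unmapped.

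The COP cells, types, measures and tests were chosen with earlier results of these data known. Types named besides the lineage were those next to COP in the order of median values. Numbers of cells were tested over all 17 types (at least 80 cells each) with edgeR 4.0.16 (quasi-likelihood, all cells as library size, no abundance trend), with sex, cohort and exposure as terms. Library values (medians of log2 UMIs, log2 genes and mitochondrial percent, means of scores) went into limma 3.58.1, for every type with 3 or more cells per library. Benjamini-Hochberg adjustment ran over types, with a threshold of 0.05. Ratios (0.5 added to each number) and within-library differences were tested by exact sign-flip permutation; odds ratios of pairs are conditional exact estimates. The edgeR and limma fits were also tested on simulated data. Alternatives were DESeq2 1.42.0, TMM factors, limma on log odds, a block for the matched pair, other summaries and weights, filters on cells, and leaving out libraries; those on the top 25% of doublet scores and on a score of 0 were chosen after seeing the data. R 4.3.3 and scipy 1.17.1 were used.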

Additional observations from a re-analysis of the deposited data

Results flagged for a closer look

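Among 66 groups of 4 or 8 library values of COP that were examined for a library far from the others, 2 were flagged. The groups share library values, so this count cannot be set against a chance rate. In the female libraries, the female baseline ARS library stood apart with 36.4 COP per 100 OPC, the other 3 having 11.5 to 13.2. In the baseline libraries, the female control library stood apart with COP at 0.234% of cells, the other 3 having 0.444% to 0.485%. Both libraries belong to the pair with the largest difference after restraint. Of 16 interactions of stress with sex or cohort in COP, edgeR and limma called 0, and the smallest adjusted value was 0.230. Over all types, the share called was 5.88% for the doublet score by sex and 0% for each of the others. In COP, 2 had an unadjusted p below 0.05. They were the mitochondrial percent by cohort (0.459, SE 0.140, limma adjusted p = 0.544) and the doublet score by sex (-0.830, SE 0.320, limma adjusted p = 0.419).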

How the results depend on the processing

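With 6 to 28 COP per library, small differences are not detectable, and most values that changed sign lay near 0; the cause was not tested. Leaving out the top 25% of doublet scores left 38 COP, with 1 in the smallest library. The log2 differences of COP to OPC were then 0.35 in UMIs and 0.062 in genes, and to Oligodendrocytes 0.16 and 0.30, none called. At a doublet score of 0 they were 1.01 and 0.64 to OPC, and 1.31 and 1.34 to Oligodendrocytes, not called in the 7 libraries left. With medians, the S score of COP minus OPC moved to -0.0121 and the G2/M score to 0.0150. Leaving out single libraries kept these 4 UMI and gene differences called. The number of COP between cohorts was called by limma on log odds (-0.75) and with OPC as library size (-1.20). Those settings called 23.5% of 17 types and 25% of 16 types. In the main fit, leaving out libraries gave -1.01 to -0.55.

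Between the sexes, COP number turned to 0.019 by limma on log odds, 0.13 without the top 5% of doublet scores, 0.16 without cells under 1000 UMIs and 0.47 with OPC as library size, with -0.13 to 0.26 over libraries left out. The ratio of COP to Oligodendrocytes by sex turned to 0.13 without the top 5% of doublet scores and 0.11 without cells under 1000 UMIs, with -0.21 to 0.32 over pairs left out. Over libraries left out, the interaction of sex with stress in COP number was -0.062 to 1.04 and that of cohort with stress -0.75 to 0.57.

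COP UMIs by stress turned to -0.042 with means, -0.10 weighted by cells and -0.15 without the top 5% of doublet scores (-0.16 to 0.28 over libraries left out). UMIs by sex turned to 0.26 with means (-0.22 to 0.22 over libraries left out), and by cohort to 0.018 weighted by cells (-0.43 to -0.015 over libraries left out). Genes by sex turned to 0.18 with means (-0.13 to 0.080 over libraries left out), and by cohort to 0.031 weighted by cells and 0.0051 without the top 5% (-0.18 to 0.013 over libraries left out); by stress they ran from -0.10 to 0.11 over libraries left out. The mitochondrial percent by cohort turned to 0.0478 weighted by cells and 0.0444 without the top 5% (-0.0819 to 0.101 over libraries left out), and by sex ran from -0.112 to 0.0707 over libraries left out.

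The doublet score by stress turned to 0.177 with medians (-0.553 to -0.152 over libraries left out), and by cohort to -0.201 with medians and -0.0277 without the top 5% (-0.164 to 0.262 over libraries left out). The S score by stress was called with medians (-0.0147), and by sex turned to 0.000573 without the top 5% (-0.00519 to 0.000424 over libraries left out). The G2/M score by stress ran from -0.0215 to -0.0116 over libraries left out. The replicate block for the matched pair changed no call (COP number by cohort -0.75).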
